A study of Mus musculus with 10 samples.

Results

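The 34 genes described here carry fatty acids into the cell and break them down for energy in mitochondria and peroxisomes, or control that breakdown. They were chosen by name, and all 34 were present among the 28808 genes that occur in at least 1 of the 10 deposited count tables. The material was kidney cortex of 4-week-old mice, dissociated to single cells and measured by Drop-seq, a droplet method that tags the 3′ end of each captured RNA with a cell barcode. Normal kidney (the control) gave 1 library, as did day 1, day 2 and day 4 following injury, while day 7, day 11 and day 14 gave 2 libraries apiece. The labels give no kind of injury, strain, sex, sham treatment or number of animals per library, and they do not say whether the 2 libraries of a day came from different animals, so the p-values below measure the spread between libraries only. The 10 tables held 64803 barcodes and 173806985 unique molecular identifiers (UMIs, each counting 1 captured RNA molecule), from 7091848 to 31632205 per library.

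Proximal tubule cells reabsorb most of the filtered solutes and cover the energy for this mainly by burning fatty acids. Fatty acids enter through carriers such as CD36 and FATP2, are activated to acyl-CoA by synthetases, and long chains cross into mitochondria bound to carnitine. There acyl-CoA dehydrogenases, the trifunctional protein, isomerases and thiolases shorten them in the cycles of beta-oxidation, while peroxisomes shorten very long and dicarboxylic chains, and the nuclear receptor PPARα with its coactivator PGC-1α switches many of these genes on.

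A barcode was kept if it held 500 or more genes, 500 or more UMIs and no more than 50% mitochondrial UMIs, which left 52797 barcodes. Day 11 kept 5409 of 10800 and 5283 of 10711 barcodes, day 7 kept 3621 of 3621 and 5154 of 5156, and the control kept 6134 of 6745. The part of this difference in the day 11 comparisons was not tested. The kept barcodes were sorted by raw marker UMIs. The proximal gate took barcodes with at least 3 UMIs over at least 2 of 16 proximal tubule genes, such as Slc34a1 and Lrp2. Barcodes with at least 2 UMIs of Havcr1, Vcam1, Krt20 and Sprr2f together went to an injured gate instead, and the distal gate took barcodes with at least 3 UMIs over at least 2 of 9 genes of the thick ascending limb and distal tubule, such as Umod and Slc12a1. Leukocyte-gated barcodes, used to gauge free RNA, held at least 3 UMIs over at least 2 of 13 leukocyte genes and passed no other threshold. The control gave 3106 proximal barcodes, days 1, 2 and 4 gave 350, 1566 and 1488, day 7 gave 169 and 275, day 11 gave 3175 and 3568, and day 14 gave 4763 and 4231. Day 7 therefore rests on few cells, with 269125 and 646676 proximal UMIs against 12320903 in the control. Counted whatever their injured markers, proximal barcodes numbered 398 and 622 on day 7 and 3112 in the control. The proximal gate thus left out more of them on day 7. Summed leukocyte markers in the proximal gate were 11.6 counts per 1000000 (CPM) in the control, 168, 89.8 and 63.1 on days 1, 2 and 4, 353 and 125 on day 7, 26.5 and 31.99 on day 11, then 13.6 and 11.9 on day 14. Markers of several other cell classes were also higher in that gate on day 7, while distal tubule markers were at 189.8 CPM in the control and on either side of it, at 279 and 170.1, on day 7. Collecting duct markers summed to 40.3 CPM in the control and 342 and 145 on day 7, endothelial markers to 4.95, then 63.2 and 26.3, stromal markers to 4.79, then 44.6 and 34.02, and the injured markers to 1.95, then 242 and 91.2. Of the 13 leukocyte markers, Tyrobp, Coro1a, C1qc, S100a8 and S100a9 were at 0 in the control's proximal gate. The share of mitochondrial UMIs in that gate was 23.1% in the control and 6.95% and 11.2% on day 7. What these differences contribute to the values below was not tested. Barcode sequences repeated between libraries were few, 62 of 52735 among kept barcodes.

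The makeup of the proximal gate also moved with the day. Straight-segment barcodes, with Slc7a13 and without Slc5a2 or Slc5a12, numbered 1501 in the control, 1, 14 and 230 on days 1, 2 and 4, and 5 and 51 on day 7. They numbered 1471 and 1946 on day 11 and 2136 and 1514 on day 14. The comparisons between days in the proximal gate, and the proximal against distal test of the day 7 change, were therefore repeated in convoluted-marker barcodes alone, those with at least 1 UMI of Slc5a2 or Slc5a12 and none of Slc7a13. These numbered 750 in the control, 259, 1291 and 724 on days 1, 2 and 4, 123 and 129 on day 7, 669 and 618 on day 11, then 1100 and 1352 on day 14. In summed counts, fewer cells of a type and less RNA per cell cannot be told apart. Values are summed UMIs per 1000000 UMIs of the gate, with totals scaled by edgeR's TMM method within that gate (scaled CPM). Changes were tested by quasi-likelihood in edgeR, with p-values adjusted over all genes by the Benjamini-Hochberg method, and a gene is said to rise or fall where the adjusted p was under 0.05. Levels are compared between libraries for 1 gene and never between genes, since a 3′ count is not a measure per length.

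On day 7, Cd36, Slc27a2, Acsm1 and Acsm3 of fatty acid uptake and activation, the acyl-CoA dehydrogenases Acadm, Acadl and Acads, and peroxisomal Ehhadh were lower in proximal barcodes than in the control. Of the 34 members 8 fell and 0 rose, against 5.87% of 13924 genes that fell and 5.80% that rose (11.7% in either direction). The members' median log2 change was −0.56, and that of all genes tested was −0.05. By role, 4 of 6 genes of uptake and activation fell, 3 of 10 of mitochondrial beta-oxidation and 1 of 5 of the peroxisome. None of the 2 regulators, 4 carnitine shuttle genes, 3 electron transfer genes, 3 cytochromes P450 or the fuel switch Pdk4 was called. In 24 of 34 members both day 7 libraries lay below the control, and in 2 neither did. Day 7 replicate 1 lay below replicate 2 in 32 of 34. The shares of all genes with these orders are not given here, so these counts are not read as results about the members.

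**Figure D1:**
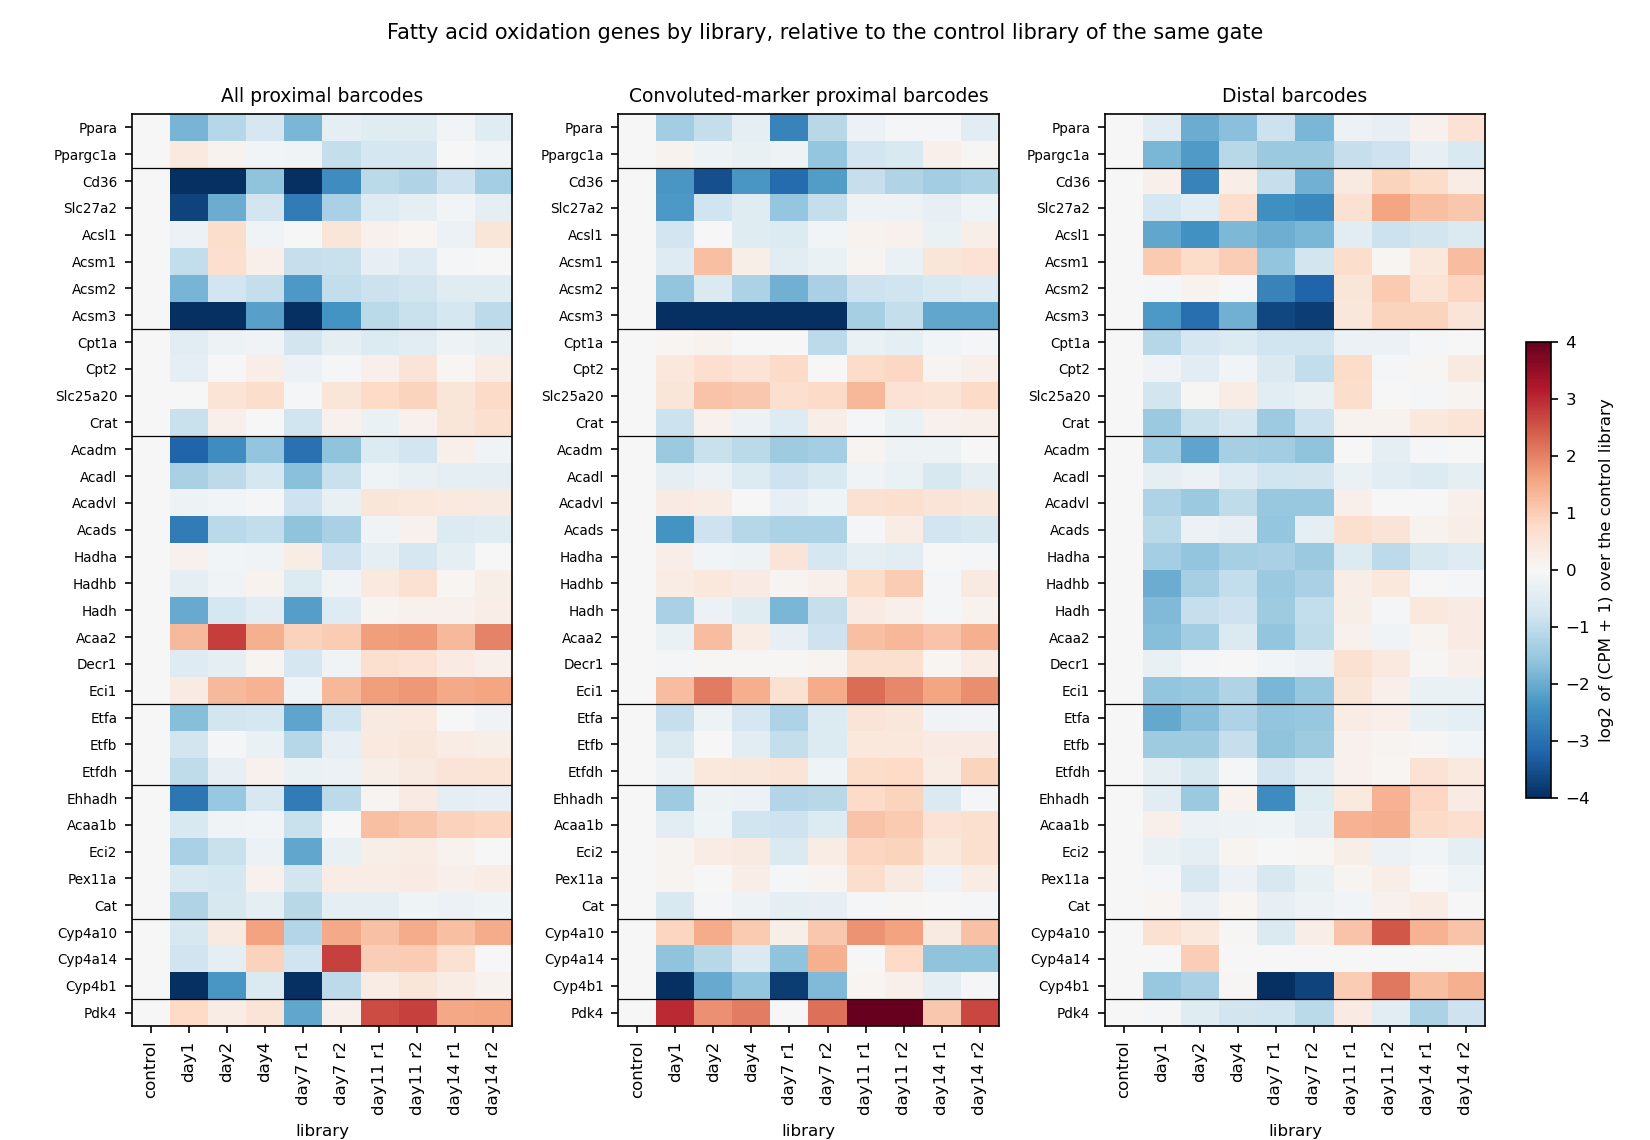
Colours show log2 of (scaled CPM + 1) in each library minus the same in the control library, on a scale from −4 to 4, for the 34 members (rows, ordered by role) and the libraries (columns), in all proximal barcodes, convoluted-marker proximal barcodes and distal barcodes. In all proximal barcodes Acsm3, Cd36, Slc27a2 and Acadm are lowest on days 1 and 2 and in day 7 replicate 1; Acaa2 and Eci1 are above the control on days 11 and 14 in both proximal panels.

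Cd36, a scavenger receptor that takes up long-chain fatty acids, was measured at 979 scaled CPM in the control, 48.6 on day 1, 35.02 on day 2, 323 on day 4, 46.8 and 175 on day 7, 458 and 426 on day 11, then 552 and 376.9 on day 14. No injured library reached the control, and the lowest values were those of days 1, 2 and 7. The day 7 change was −3.06 ± 0.48 (SE, log2; adjusted p = 0.00247, edgeR). In leukocyte-gated barcodes, a class that includes macrophages, which also express the gene, unscaled Cd36 was 223 CPM on day 1, 201 on day 2 and 223 and 153 on day 7. In the proximal gate of the same libraries it was 57.7, 37.2, 66.9 and 207 CPM, so the proximal level was above the leukocyte level only in day 7 replicate 2. The gene runs on the minus strand of chromosome 5.

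Slc27a2 encodes FATP2, which imports fatty acids and activates very long chains. It was at 2491 scaled CPM in the control, 192, 623 and 1501 on days 1, 2 and 4, 361 and 1011 on day 7, 1752 and 1923 on day 11, then 2327 and 1919.7 on day 14. The level was lowest on day 1 and in day 7 replicate 1, and all injured libraries lay below the control. The day 7 change was −1.85 ± 0.46 (adjusted p = 0.0256, edgeR).

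The medium-chain acyl-CoA synthetases Acsm2, Acsm1 and Acsm3 lie in a row on the plus strand of chromosome 7 (GRCm38, 119554340 to 119600690, 119607026 to 119662515 and 119760923 to 119787513). Being close relatives, they may share 3′ reads. Acsm3 was at 1784 scaled CPM in the control, 10.2, 28.9 and 398 on days 1, 2 and 4, 13.0 and 341 on day 7, 848 and 972 on day 11, then 1090.2 and 855 on day 14. It was close to absent on days 1 and 2 and in day 7 replicate 1, while the second day 7 library held far more. It fell on day 7 by 3.24 ± 0.81 on the log2 scale (adjusted p = 0.0256, edgeR). Acsm1 was at 90.003 in the control, 44.8, 144 and 104 on days 1, 2 and 4, 46.8 and 48.4 on day 7, 71.9 and 62.4 on day 11, then 87.4 and 91.6 on day 14. Its day 7 change was −0.91 ± 0.27 (adjusted p = 0.045, edgeR), and unlike its neighbours it was above the control on days 2 and 4. Acsm2 was at 9529.9 in the control, 2639, 5642 and 4879 on days 1, 2 and 4, 1953 and 4831 on day 7, 5303 and 5680.5 on day 11, then 6843 and 6746 on day 14. Every injured library lay below the control, but the day 7 change of −1.49 ± 0.46 did not pass (adjusted p = 0.0598, edgeR). The sixth gene of this role, Acsl1, ranged from 39.4 to 76.6 and was not called.

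Among the acyl-CoA dehydrogenases, which start each cycle of beta-oxidation, those for medium, long and short chains fell on day 7. Acadm, for medium chains, was at 1902 scaled CPM in the control, 205, 342 and 636 on days 1, 2 and 4, 239 and 625 on day 7, 1311 and 1115 on day 11, then 2194 and 1718 on day 14. All injured libraries up to day 7 lay below all those of days 11 and 14, and 1 day 14 library was above the control. The day 7 change was −2.12 ± 0.44 (adjusted p = 0.0112, edgeR). Acadl, for long chains, was at 458 in the control, 184, 222 and 282 on days 1, 2 and 4, 143 and 248 on day 7, 405 and 370.1 on day 11, then 348 and 357 on day 14. Its day 7 change was −1.20 ± 0.32 (adjusted p = 0.0342, edgeR). Acads, for short chains, was at 121 in the control, 16.6, 57.01 and 60.7 on days 1, 2 and 4, 39.0 and 48.4 on day 7, 109 and 138 on day 11, then 82.7 and 85.6 on day 14. Its day 7 change was −1.44 ± 0.28 (adjusted p = 0.00742, edgeR). Acadvl, for very long chains, ranged from 88.4 to 220.4 and was not called. Of the further steps, Hadha and Hadhb, the subunits of the trifunctional protein, ranged from 60.1 to 130.0 and from 39.0 to 89.3, Hadh from 114 to 633 and Decr1 from 135 to 338, and none was called on day 7.

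Ehhadh, the bifunctional enzyme of peroxisomal beta-oxidation, was at 187 scaled CPM in the control, 24.3, 65.3 and 120.1 on days 1, 2 and 4, 26.0 and 90.2 on day 7, 201 and 234 on day 11, then 145 and 147 on day 14. Its lowest values were on day 1 and in day 7 replicate 1, and both day 11 libraries were above the control. The day 7 change was −1.55 ± 0.40 (adjusted p = 0.0298, edgeR). The other peroxisomal genes, not called on day 7, were the thiolase Acaa1b (133 to 566), the isomerase Eci2 (33.8 to 179), Pex11a of peroxisome division (39.0 to 82.9) and catalase, Cat (188 to 430.0).

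The regulators were not called on day 7. Ppara was at 57.9 scaled CPM in the control, 15.4, 25.7 and 36.0 on days 1, 2 and 4, 15.6 and 44.5 on day 7, 40.9 and 41.3 on day 11, then 53.5 and 41.5 on day 14. All injured libraries were below the control, with a day 7 change of −0.79 ± 0.37 (adjusted p = 0.193, edgeR), and day 7 replicate 1 rests on 6 UMIs. Ppargc1a, encoding PGC-1α, was at 54.4 in the control, 71.6, 59.9 and 49.96 on days 1, 2 and 4, 49.4 and 27.5 on day 7, 33.3 and 33.97 on day 11, then 55.1 and 50.5 on day 14. The 2 earliest injured libraries were above the control, and the day 7 change was −0.60 ± 0.31 (adjusted p = 0.238, edgeR). Cpt1a, which forms acylcarnitine at the outer mitochondrial membrane and limits the entry of long chains, was at 143 in the control, 107, 123 and 131 on days 1, 2 and 4, 85.8 and 111 on day 7, 97.4 and 105 on day 11, then 123 and 116 on day 14. These values span less than those of the dehydrogenases, and the day 7 change was −0.51 ± 0.26 (adjusted p = 0.228, edgeR).

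Cyp4a10 and Cyp4a14, neighbours on chromosome 4 and known PPARα targets that hydroxylate the end of the fatty acid chain, were not called on day 7. Cyp4a10 was at 36.7 scaled CPM in the control, 23.0, 47.7 and 113 on days 1, 2 and 4, 15.6 and 106 on day 7, 84.4 and 103 on day 11, then 85.6 and 105 on day 14. The day 7 libraries lay on either side of the control, and the change was 0.91 ± 0.53 (adjusted p = 0.291, edgeR). Cyp4a14 was nearly absent, with 7 UMIs in the control, 0, 2 and 11 on days 1, 2 and 4, 0 and 8 on day 7, 12 and 14 on day 11, then 20 and 8 on day 14. Pdk4, which inhibits pyruvate dehydrogenase and so spares glucose, had 31 UMIs in the control and 0 and 3 on day 7. At a one-sided 95% limit a count of 0 allows up to 3 UMIs, so the day 7 change of Pdk4, −0.33 ± 0.82 (adjusted p = 0.826, edgeR), says little.

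**Figure D2:**
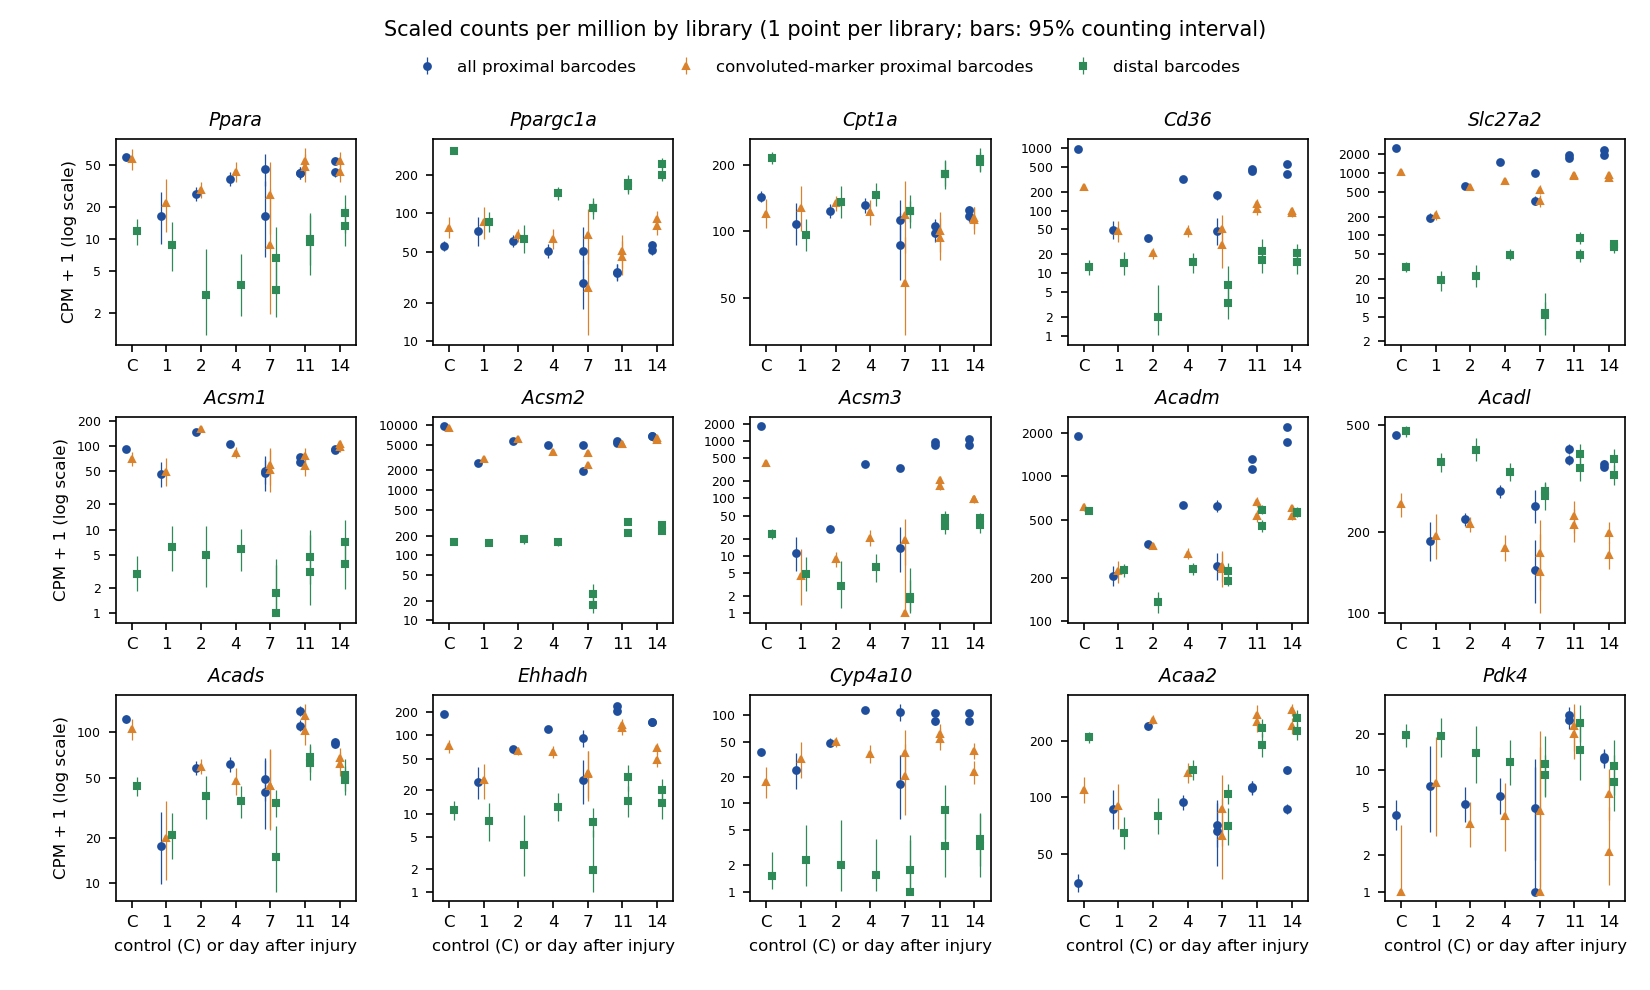
Scaled CPM + 1 (log axis) of 15 members in each library by day after injury, for all proximal, convoluted-marker and distal barcodes, with 95% counting intervals as bars; each gate is scaled on its own, so heights are read over days and not between gates. Acsm3 in all proximal barcodes goes from 1784 in the control to 10.2 on day 1 and 848 and 972 on day 11, and Cpt1a stays between 85.8 and 143.

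The day 7 count depended on single libraries, on the scaling and on the filter on low counts. Without day 7 replicate 1, 10 members fell and 3 rose, against 4.77% and 4.33% of 13484 genes, and without replicate 2, 17 fell and 0 rose, against 10.4% and 7.34% of 13771. Leaving out day 11 replicate 1 or 2 left 3 that fell (3.01% and 2.89% of all genes fell), and without day 14 replicate 2, 5 fell (3.76%). Without TMM scaling the median of all genes moved to 0.67 and 3 members fell while 4 rose, where 1.39% of genes fell and 16.5% rose. Without the filter, 13 fell and 1 rose, against 5.77% and 4.26% of 25118 genes. Acadm, Acsm3 and Cd36 were the 3 that still fell without TMM scaling, and none of the other 5 changed sign there. With barcodes kept in the proximal gate whatever their injured markers, 23 fell and 0 rose, where 36.2% of 14573 genes were called. Acadm and Cd36 were the only members called on day 7 under every alternative run. The call of Acsm1 was lost under 10 alternatives, those of Acadl and Ehhadh under 6 each, those of Acsm3 and Slc27a2 under 3 each, and that of Acads under 1. Among convoluted-marker barcodes, 11 of 34 fell and 1 rose, against 5.86% and 5.27% of 11342 genes. The 5 members that fell in both sets were Acadm, Acads, Acsm3, Cd36 and Slc27a2. Acsm2 (−1.57 ± 0.25), Cyp4b1 (−2.44 ± 0.38), Etfa (−0.84 ± 0.27), Etfb (−0.74 ± 0.23), Hadh (−1.29 ± 0.28) and Ppara (−1.71 ± 0.49) were called in this set and not in all proximal barcodes, and for Acadl, Acsm1 and Ehhadh it was the reverse. The difference between the sets was not tested. Convoluted-marker Acadm was at 616 scaled CPM in the control and at 227 and 241 on day 7, a change of −1.39 ± 0.25 (adjusted p = 0.000401, edgeR). Convoluted-marker Cd36 was at 239 in the control, 46.4, 19.9 and 46.3 on days 1, 2 and 4, 27.4 and 50.4 on day 7, 126 and 103 on day 11, then 90.7 and 99.3 on day 14. All injured libraries stayed below the control there too.

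**Figure D3:**
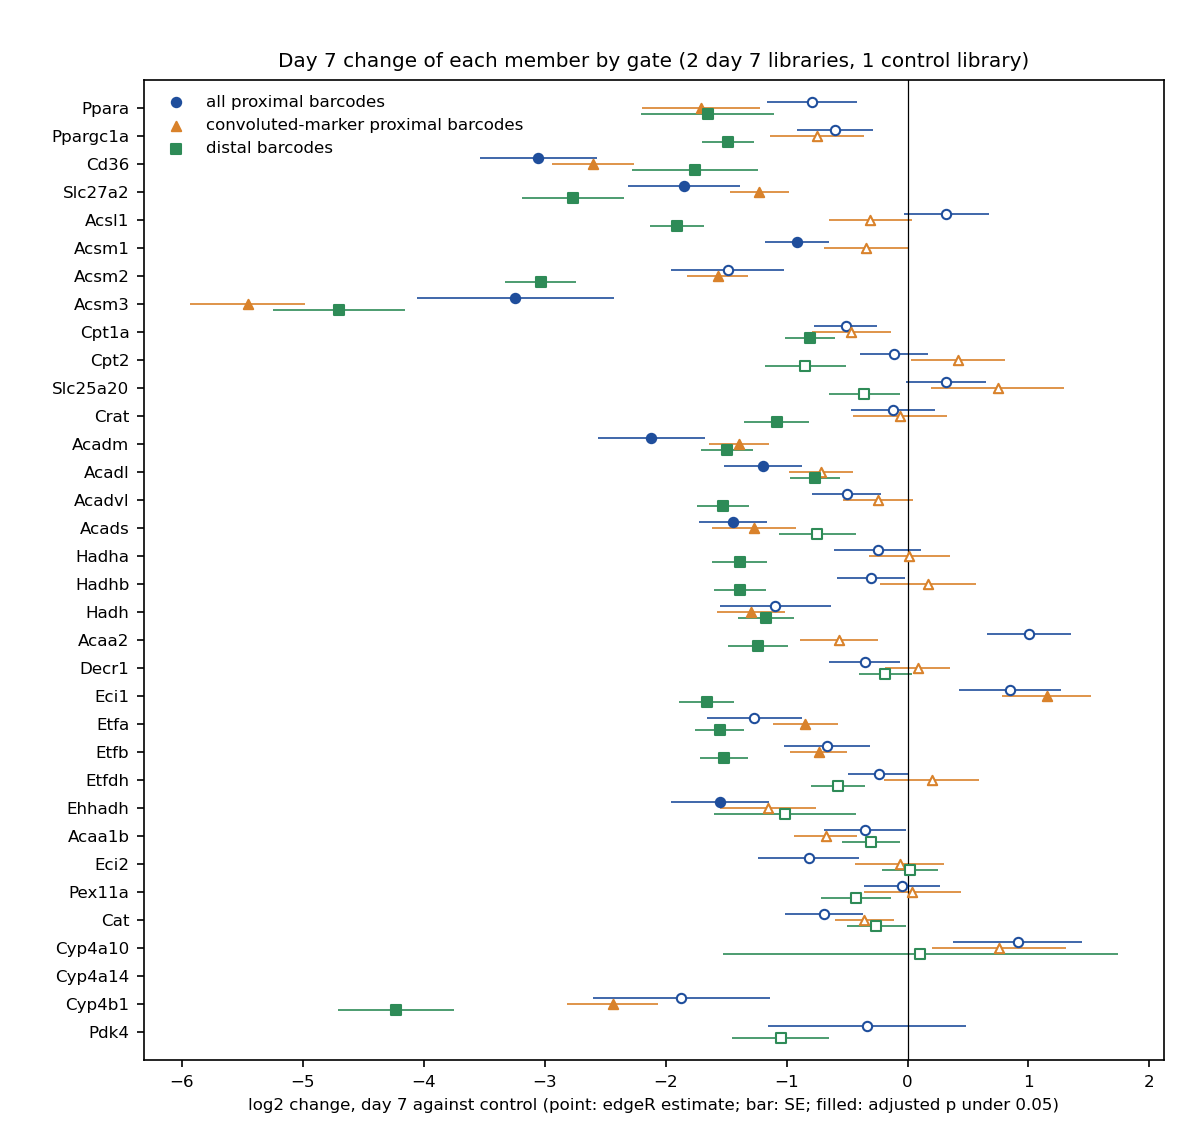
Change from control to day 7 (log2, edgeR) of each member in all proximal, convoluted-marker and distal barcodes, with bars of 1 SE; filled points have an adjusted p under 0.05. Cyp4a14 and convoluted-marker Pdk4, with almost no UMIs in a group, and distal Acsm1, which was not tested, are not drawn; Cd36 and Acsm3 lie farthest to the left in the proximal gate, at −3.06 and −3.24.

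The windows before the starts of Acadm and Cd36, the members called on day 7 under every alternative, are shown because PPARα binds repeats of AGGTCA, and each holds 1 copy of this half-site. Each holds the 250 bases before the RefSeq start (GRCm38.p6), read 5′ to 3′ on the gene's minus strand, at chr3:153944644-153944893 for Acadm and chr5:17835897-17836146 for Cd36. Capitals mark TGACCT, the reverse complement of AGGTCA.
Acadm: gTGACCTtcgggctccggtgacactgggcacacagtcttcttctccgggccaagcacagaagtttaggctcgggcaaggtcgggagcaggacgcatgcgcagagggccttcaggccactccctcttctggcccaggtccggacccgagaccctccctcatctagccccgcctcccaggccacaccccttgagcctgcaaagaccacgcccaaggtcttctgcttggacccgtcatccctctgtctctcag
Cd36: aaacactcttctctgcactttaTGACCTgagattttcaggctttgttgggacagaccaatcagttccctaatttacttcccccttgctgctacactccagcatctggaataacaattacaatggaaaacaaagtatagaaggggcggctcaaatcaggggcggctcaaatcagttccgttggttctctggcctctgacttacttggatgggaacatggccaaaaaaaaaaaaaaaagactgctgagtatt
The match begins 249 bases before the start in Acadm and 228 bases before it in Cd36. In the annotation, the Acadm window lies before the start of that gene, and the Cd36 window lies inside the Cd36 locus (17781690 to 17888801). Searched on both strands, AGGTCA occurred in the RefSeq windows (250 bases before to 50 after the start) of 7 of the 29 members that had one, or 24.1%, and in 16.3% of 32851 promoters. The 7 were Acadm, Acadvl, Acsm1, Cat, Cd36, Cpt1a and Slc27a2. The direct repeat itself, 2 half-sites 1 base apart (DR1), occurred in 0 of the 29 windows and in 0.0396% of promoters, and in 0 of 29 and 0.381% with any base allowed at the fourth position of each half-site. Hadha and Hadhb lie head to head on chromosome 5, and their windows share 228 of 300 bases. A match is a description of the letters and not a bound site.

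On days 1, 2 and 4, with 1 library each, differences from the control have no replicate check. Members are counted where the ratio of scaled CPM was at least 2 or at most 0.5 and both libraries together held at least 20 UMIs. On day 1, 16 of 33 members were past 2-fold lower and 1 higher, against 22.3% and 13.9% of 11079 genes. On day 2, 9 were lower and 2 higher (12.1% and 15.7% of 12097 genes), and on day 4, 4 were lower and 3 higher (12.1% and 12.6% of 11765 genes). Without TMM scaling the counts were 11 lower and 3 higher, 6 and 5, and 3 and 5, where 38.4%, 32% and 30.9% of all genes were past 2-fold in either direction. The smallest ratio was that of Acsm3 on day 1, at 0.00574 (95% counting interval 0.00248 to 0.0113, from 8 UMIs), when straight-segment barcodes numbered 1. In convoluted-marker barcodes Acsm3 was also far below that set's control on day 1, with values given further below. The part of segment makeup in this ratio was not tested. Among the day 1 ratios Cyp4b1 followed at 0.0338 (0.0277 to 0.0410), Cd36 at 0.0497 (0.0351 to 0.0682), Slc27a2 at 0.0770 (0.0652 to 0.0905) and Acadm at 0.108 (0.0915 to 0.126). In convoluted-marker barcodes, 10 members were past 2-fold lower on day 1 and 1 higher, against 15.9% and 10.9% of 7889 genes (26.8% in either direction). On day 2 there were 3 lower and 5 higher in that set (8.07% and 15.7% of 10629 genes, 23.8% in either direction), and on day 4, 6 lower and 3 higher (11% and 13.8% of 9301 genes, 24.7% in either direction). On day 4 the share of members past 2-fold lower in all proximal barcodes was near that of all genes. These members were Acadm, Acads, Acsm3 and Cd36, with Acads at a ratio of 0.4996 and Acsm3 at 0.223 (0.213 to 0.234).

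The members past 2-fold higher were Acaa2 on days 1, 2 and 4, Eci1 on days 2 and 4, and Cyp4a10 on day 4. Acaa2, the mitochondrial thiolase that ends each cycle, and Eci1, an isomerase for unsaturated chains, are named here because of these values. Acaa2 was at 34.04 scaled CPM in the control, 85.7, 239 and 93.1 on days 1, 2 and 4, 65.0 and 70.6 on day 7, 112 and 112 on day 11, then 85.4 and 139 on day 14. In all proximal barcodes every injured library was above the control. In convoluted-marker barcodes the control stood at 109, days 1, 2 and 4 at 89.4, 259 and 134, day 7 at 86.2 and 61.2, day 11 at 252 and 274, and day 14 at 240.1 and 291. Day 1 and both day 7 libraries were below the control in that set, so the direction on these days depended on which proximal barcodes were counted. Eci1 was at 72.7 in the control, 92.1, 181 and 193 on days 1, 2 and 4, 65.0 and 184 on day 7, 236 and 242 on day 11, then 209 and 221 on day 14. In convoluted-marker barcodes all injured libraries were above its control of 42.9, with 66.6 and 122 on day 7, and it rose by 1.15 ± 0.37 (adjusted p = 0.0425, edgeR).

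From day 7 to day 11, 14 of 34 members rose and 0 fell, against 7.79% of 13924 genes that rose and 6.03% that fell (13.8% in either direction). The members' median log2 change was 0.84, with 0.01 for all genes. The risers were Cd36 (1.91 ± 0.43) and Slc27a2 (1.41 ± 0.40) of uptake, and the beta-oxidation genes Acadm (1.47 ± 0.39), Acadl, Acadvl, Acads (1.47 ± 0.25), Hadhb and Decr1. With them rose the electron transfer flavoprotein subunits Etfa (1.64 ± 0.34) and Etfb, peroxisomal Ehhadh (1.77 ± 0.36) and Acaa1b, the cytochrome P450 Cyp4b1 (2.26 ± 0.65) and Pdk4 (3.34 ± 0.58), which is bounded by 0 UMIs in day 7 replicate 1. In 24 of 34 members both day 7 libraries lay below all 4 libraries of days 11 and 14. The share of all genes with this order is not given here, so the count is not read as a result about the members. Acsm3 did not pass (2.27 ± 0.72, adjusted p = 0.0564, edgeR), nor did Ppara (0.29 ± 0.34, adjusted p = 0.609), Ppargc1a (−0.09 ± 0.29, adjusted p = 0.865) or Cpt1a (0.01 ± 0.23, adjusted p = 0.984). In convoluted-marker barcodes 17 rose and 0 fell, against 8.62% and 4.84% of 11342 genes, and 10 of them were among the 14. Single libraries decided the count: 2 rose without day 11 replicate 1, 0 without day 11 replicate 2, 8 and 7 without day 14 replicates 1 and 2, and 22 without day 7 replicate 2. In the same order 2.38%, 0.537%, 4.81%, 4.69% and 11.8% of all genes rose. Without TMM scaling 6 rose, with 2.05% of all genes.

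Compared with the control, day 11 had 5 members higher and 0 lower, against 8.95% of 13924 genes higher and 11% lower (20% in either direction), so the members' share in either direction was below that of all genes. The 5 were Pdk4 (3.002 ± 0.36, adjusted p = 0.000758), Eci1 (1.72 ± 0.42, adjusted p = 0.0158), Acaa2 (1.71 ± 0.32, adjusted p = 0.00436), Acaa1b (1.16 ± 0.35, adjusted p = 0.0391) and the carnitine carrier Slc25a20 (0.88 ± 0.25, adjusted p = 0.0299, all edgeR). Pdk4 was at 3.27 scaled CPM in the control, 6.40, 4.23 and 5.14 on days 1, 2 and 4, 0 and 3.92 on day 7, 25.1 and 27.6 on day 11, then 11.3 and 11.8 on day 14. Both day 11 libraries stood above all others, and Pdk4 was the 1 member that differed between days 14 and 11, falling by 1.19 ± 0.24 on the log2 scale (adjusted p = 0.0126, edgeR, against 4.93% of genes that fell and 3.18% that rose, 8.12% in either direction). That call was lost without any 1 of the 4 libraries of these days. On day 14, 3 members were higher than in the control and 0 lower, against 3.63% and 4.70% of 13924 genes (8.33% in either direction). The members' share in either direction was thus near that of all genes. The 3 were Pdk4 (1.82 ± 0.36), Acaa2 (1.72 ± 0.32) and Eci1 (1.56 ± 0.41). Leaving out either day 7 library gave 13 called members on day 11 (6 lower, 7 higher) and 7 on day 14 (2 lower, 5 higher). In these refits more of all genes were called too: on day 11, 16.7% lower and 15.9% higher without replicate 1 of day 7, and 16.1% and 15.7% without replicate 2, and on day 14, 10.1% and 9.06%, then 9.63% and 8.95%. The day 11 count was 2 and 1 without its replicates 1 and 2 and 3 on leaving out either day 14 library, and the day 14 count was 0 without its replicate 2. The share of all genes called on day 11 was 8.95% and 3.30% without its replicates 1 and 2, and 13.2% and 13% without day 14 replicates 1 and 2, and the share called on day 14 was 1.33% without its replicate 2.

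In convoluted-marker barcodes few members were called lower than in the control, Acsm3 and Cd36 on days 11 and 14 and Acsm2 on day 11. On day 11, 3 of 34 members were lower and 8 higher, against 8.06% and 9.49% of 11342 genes, and on day 14, 2 were lower and 2 higher, against 3.83% and 4.62% (8.45% in either direction). The lower members' share was therefore near that of all genes on day 11. Acsm3 was at 415 scaled CPM in the convoluted-marker control, 3.44, 7.71 and 19.5 on days 1, 2 and 4, 0 and 18.0 on day 7, 164 and 212 on day 11, then 96.8 and 97.3 on day 14. No injured library came near the control, and the change was −1.14 ± 0.27 on day 11 (adjusted p = 0.00421, edgeR) and −2.10 ± 0.26 on day 14 (adjusted p = 2.71e-05, edgeR). Cd36 changed there by −1.05 ± 0.25 on day 11 (adjusted p = 0.00438, edgeR) and by −1.33 ± 0.24 on day 14 (adjusted p = 0.00121, edgeR). Acsm2 was lower on day 11 (−0.82 ± 0.25, adjusted p = 0.0251, edgeR). The higher members on day 11 were Hadhb, Ehhadh, Acaa1b, Acaa2, Eci1 (2.13 ± 0.32), Eci2, Cyp4a10 (1.76 ± 0.40) and Pdk4, and those on day 14 were Acaa2 (1.29 ± 0.26) and Eci1 (1.76 ± 0.31). From day 11 to day 14, 5 fell and 1 rose in this set (4.88% and 3.27% of genes). Ehhadh, Acads, Cyp4a10, Acsm3 and Pdk4 fell, and Ppargc1a rose by 0.82 ± 0.25 (adjusted p = 0.0452, edgeR). Convoluted-marker Pdk4 held from 0 to 20 UMIs per library, so its calls in this set rest on few counts.

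Within single libraries, injured-gated barcodes held less of most members than proximal-gated ones. The 5 libraries of days 1, 2, 4 and 7 had at least 30 barcodes in each gate, with 688, 192, 1651, 507 and 633 injured barcodes, and each library served as its own control in the edgeR model. Values are scaled over the sums of both gates here and so differ from those above. Of the 33 members tested, 22 were lower in the injured gate and 0 higher, against 14.2% of 10289 genes lower and 15% higher (29.2% in either direction). The median log2 difference of the members was −0.80, with 0.03 for all genes. The injured value was lower in 5 of 5 libraries for 18 members, in 4 for 10, and in none for Acadl and Pdk4. The shares of all genes with such counts are not given here, so these library counts are not read as results about the members. The called members were Ppara, 4 of 6 uptake and activation genes, 3 of 4 carnitine shuttle genes, 6 of 10 of mitochondrial beta-oxidation, 3 of 3 of electron transfer, 4 of 5 of the peroxisome, and Cyp4a10.

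**Figure D4:**
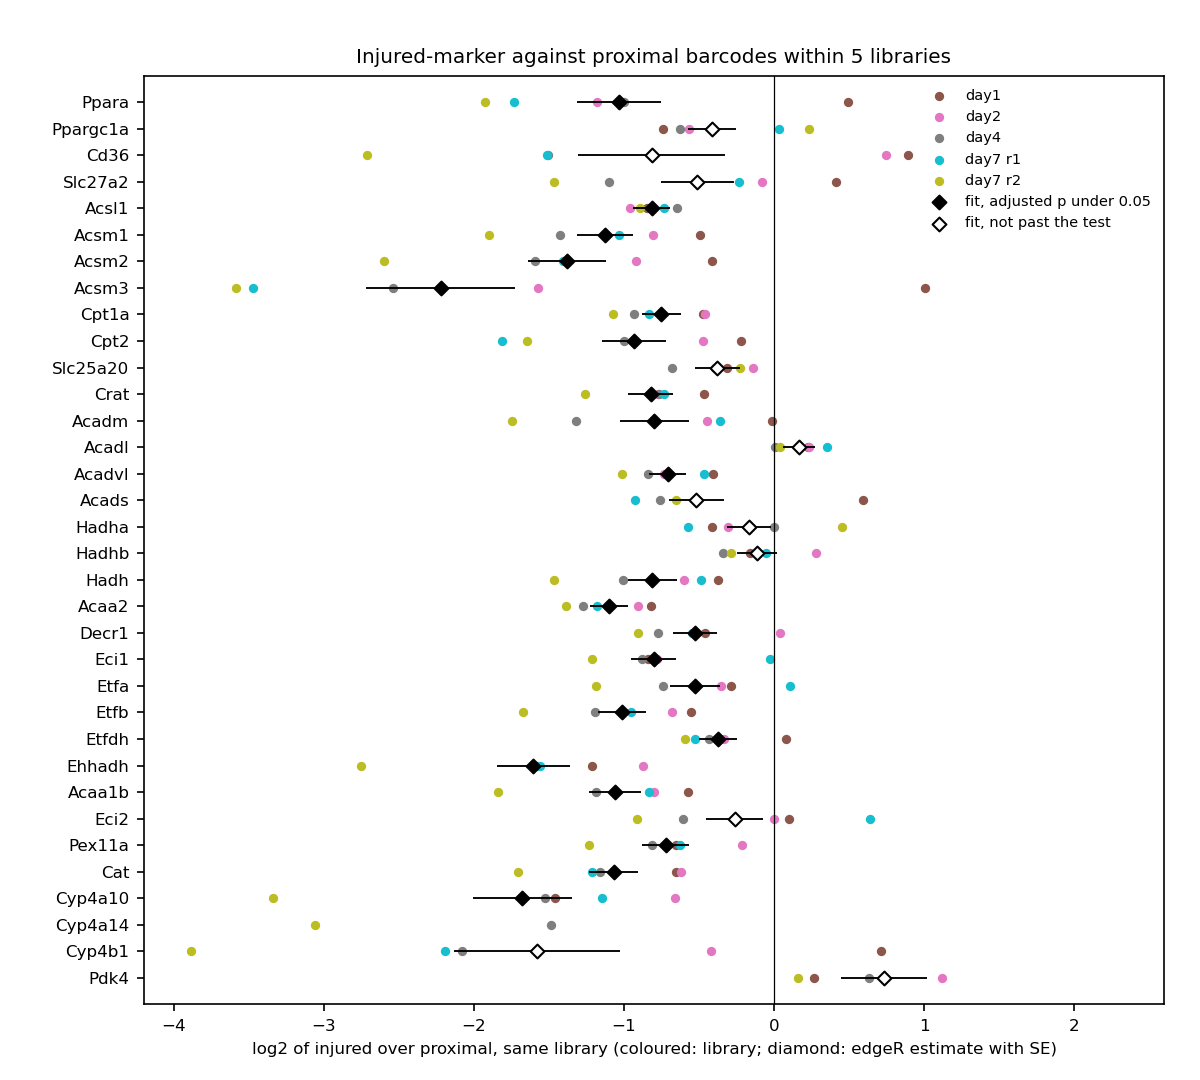
Log2 ratio of scaled CPM in injured over proximal barcodes of the same library for each member (small points, 5 libraries) with the edgeR estimate and 1 SE. Most points lie left of 0, and all 5 libraries of Acsm2, Ehhadh and Cyp4a10 do.

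Ehhadh was at 14.1 scaled CPM in injured against 32.7 in proximal barcodes on day 1, at 43.7 against 80.0 on day 2, at 48.7 against 146 on day 4, and at 11.9 against 35.3 and 17.1 against 115 on day 7. The injured value was lower in every library, and the difference was −1.60 ± 0.24 (adjusted p = 0.00187, edgeR). Cyp4a10, not called on day 7, was at 11.3 against 31.0 on day 1, 37.0 against 58.5 on day 2, 47.6 against 137 on day 4, and 9.56 against 21.2 and 13.4 against 135 on day 7 (−1.68 ± 0.33, adjusted p = 0.00536, edgeR). Acsm2 was at 2672 against 3551, 3662 against 6917, 1961 against 5923, 1001 against 2652 and 1017 against 6168 in the same order (−1.38 ± 0.26, adjusted p = 0.00437, edgeR). Acsm3 was at 27.7 against 13.8 on day 1, 11.9 against 35.5 on day 2, 82.8 against 483 on day 4, and 1.59 against 17.7 and 36.3 against 436 on day 7. The day 1 pair ran the other way on 59 and 8 UMIs, and the difference over the 5 libraries was −2.22 ± 0.50 (adjusted p = 0.00899, edgeR). Ppara (−1.04 ± 0.28) and Cpt1a (−0.75 ± 0.13) were lower in the injured gate, and Ppargc1a (−0.41 ± 0.16, adjusted p = 0.0771, edgeR) did not pass.

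Several members that had fallen by day were not called between these gates. Acadl was at 290.4 in injured against 248 in proximal barcodes on day 1, 321 against 272 on day 2, 344 against 343 on day 4, and 249 against 194 and 326 against 317 on day 7 (0.16 ± 0.11, adjusted p = 0.269, edgeR). Cd36 was higher in injured barcodes on days 1 and 2 (122 against 65.4 and 72.1 against 42.9) and lower on day 4 (138 against 392) and day 7 (22.3 against 63.6 and 34.2 against 224), with a difference of −0.82 ± 0.49 (adjusted p = 0.24, edgeR). Slc27a2 was at 344 against 258, 724 against 764, 849 against 1822, 418 against 491 and 468 against 1290.4 in library order (−0.51 ± 0.24, adjusted p = 0.143, edgeR). Summed proximal markers were themselves lower in the injured gate, for example 2803 against 9636 CPM on day 4, and the proximal gate requires those markers. The mitochondrial share was lower in the injured than in the proximal gate of all 5 libraries, at 12% against 17.3% on day 1, 8.40% against 14% on day 2, 5.93% against 9.41% on day 4, and 4.30% against 6.95% and 4.77% against 11.2% on day 7. Median UMIs per barcode were higher in the injured gate of all 5 libraries. They were 1907.5 against 1463 on day 1, and 3739 against 1946 on day 2. On day 4 they were 2591 against 1755.5, and on day 7, 1627 against 1235 and 2759 against 1552. The part of these differences in the result was not tested, and the comparison was not repeated in convoluted-marker barcodes. With injured barcodes limited to those that also passed the proximal threshold, 20 members were called, all lower, against 12.6% of 10088 genes lower and 13.7% higher. Without the day 4 library 14 were called, all lower, against 5.53% of 9592 genes lower and 5.31% higher. Acadm, Acsm3, Cpt2, Decr1, Etfa, Etfdh, Pex11a and Ppara were lost.

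In distal barcodes of the same libraries, most members were lower on day 7 and higher again by day 11. Distal counts were 968 barcodes in the control, 577, 230 and 520 on days 1, 2 and 4, 315 and 517 on day 7, 580 and 448 on day 11, then 655 and 530 on day 14. On day 7, 20 of 32 members fell and 0 rose, against 11.6% of 11619 genes that fell and 9.63% that rose (21.2% in either direction), and from day 7 to day 11, 26 rose and 0 fell, against 16.2% and 12.7% (28.9% in either direction). Without TMM scaling, 13 members fell and 2 rose on day 7, with the median of all genes at 0.77 and 3.92% of them falling and 42.9% rising. From day 7 to day 11, 17 rose and 1 fell without TMM scaling, with that median at −0.67 and 7.29% of all genes rising and 38% falling. For 9 members the distal level exceeded that of leukocyte-gated barcodes in at most 5 of 10 libraries (Cyp4b1, Acsm1, Acsm2, Acsm3, Cd36, Cyp4a14, Slc27a2, Ehhadh and Cat), so their distal values are not read as distal expression. Where leukocytes express a gene themselves, as macrophages do Cd36, the comparison cannot tell whether distal cells express it too. Of the 25 other members, 15 fell on day 7 and 20 rose to day 11. The distal markers themselves summed to 24183 CPM in the control, 8295 and 11127 on day 7, and 19521 and 20931 on day 11. In the control, day 7 and day 11 libraries in that order, collecting duct markers in this gate were at 121 CPM, then 1009 and 806, then 200 and 191, and leukocyte markers at 12.7, then 227 and 85.0, then 39.6 and 40.6. The mitochondrial share was 32.4%, then 4.67% and 6.76%, then 21.9% and 17.1%. The part of these shifts in the result was not tested.

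Ppargc1a was at 305 scaled CPM in the distal control, 84.8, 62.2 and 142 on days 1, 2 and 4, 108 and 109 on day 7, 161 and 171 on day 11, then 243 and 199 on day 14. All injured libraries were below the control, and those of days 1, 2 and 7 were lowest (day 7, −1.49 ± 0.21, adjusted p = 5.95e-05, edgeR). Cpt1a was at 214 in the control, 95.7, 135 and 146 on days 1, 2 and 4, 122 and 123 on day 7, 182 and 181 on day 11, then 206 and 211 on day 14 (day 7, −0.80 ± 0.21, adjusted p = 0.00963, edgeR). This call was lost with DESeq2, without TMM scaling and with barcodes limited to a mitochondrial share of 25%. Acadm was at 578 in the control, 224, 134 and 230.3 on days 1, 2 and 4, 221 and 190.4 on day 7, 588 and 454 on day 11, then 557 and 571 on day 14 (day 7, −1.49 ± 0.22, adjusted p = 6.07e-05, edgeR). Ppara, at 10.8 in the control and 5.56 and 2.32 on day 7, rests on 44, 6 and 6 UMIs (−1.65 ± 0.55, adjusted p = 0.0388, edgeR). The Ppara call was lost under 7 alternatives, those 3 and leaving out day 7 replicate 2 or either day 14 library among them. Distal Pdk4 and Cyp4a10 were not called on day 7.

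The day 7 change differed between the proximal and distal gates for 9 of 34 members, tested as an interaction in edgeR, and in all 9 the change was more negative in the distal gate (among them Cyp4b1 and Acsm2, whose distal level is not read as expression). Over all 13017 genes 4.70% differed in that direction and 5.18% in the other (9.88% in all). Eci1 stood at 165 scaled CPM in the distal control and at 45.4 and 56.9 on day 7, while in the proximal gate the values were 72.7 and then 65.0 and 184 (difference 2.48 ± 0.35, adjusted p = 3.48e-06, edgeR). Acsl1, a long-chain acyl-CoA synthetase, was at 168 in the distal control and at 42.6 and 46.0 on day 7, and at 46.4 and then 46.8 and 65.4 in the proximal gate (2.23 ± 0.31, adjusted p = 3.74e-06, edgeR). Hadha, at 409 in the distal control and 167 and 147 on day 7, differed by 1.08 ± 0.33 (adjusted p = 0.0306, edgeR), although its proximal level was no higher than that of leukocyte-gated barcodes in 5 of 10 libraries. The Hadha call was lost under 5 alternatives, among them DESeq2 and leaving out day 7 replicate 1 or either day 11 library. With convoluted-marker barcodes 9 members differed too (4.33% and 3.65% of 12668 genes in the same order), and 8 were the same. Acaa2 was lost and Slc27a2 (1.55 ± 0.39) gained. Leaving out either day 11 library left 5 that differed, and without day 7 replicate 2, 5 differed in that direction and 4 in the other. The share of all genes that differed in those refits is not given here, so these counts are not read as results about the members. DESeq2 called 3 (Acaa2, Eci1 and Acsl1), where it called 2.74% of all genes, and with gates on marker shares 14 differed, against 12.1%.

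Over the 10 libraries, 22 of 33 members were higher in proximal than in distal barcodes and 4 lower, against 30.9% and 30.4% of 9686 genes. For 8 of the 9 members named above (Cyp4a14 was not tested) the distal side of this comparison is no more than the leukocyte level in at least 5 libraries. All 5 peroxisomal genes were higher in the proximal gate, from Eci2 (0.71 ± 0.18) to Ehhadh (3.64 ± 0.18), as were all 3 electron transfer genes and 5 of 6 genes of uptake and activation. Ppara was higher there by 2.50 ± 0.25 (adjusted p = 6.87e-07, edgeR). The 4 lower in the proximal gate were Ppargc1a (−1.52 ± 0.24), Hadhb (−1.21 ± 0.17), Hadha (−1.04 ± 0.18) and Cpt1a (−0.32 ± 0.12), the last with adjusted p = 0.0313 (edgeR). The Cpt1a call was lost under 8 alternatives, among them leaving out day 7 replicate 1 or any 1 library of days 11 and 14.

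Other genes of fatty acid metabolism, most of them of breakdown, transport and their regulators, were examined as a list of 71, none of them among the 34. On day 7, 14 of the 65 tested fell in proximal barcodes and 4 rose, with a median of −0.36, against 5.87% and 5.80% of all genes. The largest falls were those of Bdh1 of ketone body metabolism (−2.95 ± 0.54, adjusted p = 0.00561), the peroxisomal oxidase Acox2 (−2.46 ± 0.47, adjusted p = 0.0068) and Cyp4a12a (−2.43 ± 0.54, adjusted p = 0.0146, all edgeR). The largest rises were those of Angptl4, a secreted inhibitor of lipoprotein lipase (2.52 ± 0.38, adjusted p = 0.00203), the synthetase Acsl5 (1.65 ± 0.45, adjusted p = 0.0355) and the fatty acid binding protein Fabp3 (1.58 ± 0.42, adjusted p = 0.0309, all edgeR). Of 28 tested genes of fatty acid synthesis and lipid storage, 2 fell and 5 rose, with a median of 0.04 and against the same shares. Scd1 and Acss2 were the 2 that fell, and the rises were led by the lipid droplet protein Plin3 (2.19), Agpat2 (2.04) and Elovl6 (1.98). Between injured and proximal barcodes, 34 of 55 genes of the first list were lower and 4 higher, against 14.2% and 15% of all genes, and 5 of 23 synthesis and storage genes were lower and 1 higher, the lipid droplet protein Plin2 (0.92 ± 0.20).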

How the data were processed

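Per the labels' protocols, single-cell suspensions were run through Drop-seq and the 3′ ends prepared with a modified Nextera XT method. The submitters' processing notes name Bowtie2 2.2.7 and mm10 without saying how they were used. The counting tool, annotation and strand setting are not given in the sources used here. Each deposited table holds 1 library as counts by gene symbol and cell barcode, read here as UMIs because they are whole numbers with unequal totals.

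From these, barcodes were filtered, gated and summed per library and gate as the report describes, and no doublet caller was run. Barcodes over the injured and the proximal threshold counted as injured. Those over the distal and also the proximal or injured threshold entered no gate. They were 12.4% of kept barcodes in the control and 1.05% and 0.776% on day 7. Tubular barcodes over a leukocyte, endothelial, stromal or collecting duct threshold (at least 3 UMIs over at least 2 genes) were left out too, at 8.66%, then 14.3% and 13.1%. The part of these exclusions in the results was not tested. Sums were tested with edgeR 4.0.16 (R 4.3.3), filterByExpr, TMM and the quasi-likelihood F test, with 1 term per group over all 10 libraries (3 residual degrees of freedom). The control, with 1 library, borrows its spread from the replicated days. Library was a block where gates were compared. SE is the absolute log2 change divided by the square root of F. Counting intervals are exact, cover counting error only and use the 95% level. On simulated counts of 13210 genes for day 7 against control, 98 of 100 4-fold and 25 of 100 2-fold changes were recovered, with 2 of 13010 unchanged genes called. The changed genes were drawn from the better-counted ones, unchanged genes had the same mean in all groups, and libraries varied independently. The recovery therefore does not cover genes with few UMIs, such as Pdk4. Nor does it cover a library that lies below its replicate for most members, such as day 7 replicate 1.

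Loci came from GENCODE M21 (GRCm38), and 14 members overlap a gene on the other strand and 6 one on the same strand. Alternatives were other gates, scalings, filters, DESeq2 1.42.0 and single libraries left out. Members named with every library's value were those called on day 7 and Ppara, Ppargc1a, Cpt1a, Acadm, Ehhadh, Cyp4a10, Cyp4a14, Acsm2, Acsm3, Slc27a2, Pdk4 and Cd36. Of the other lists, the 3 called genes with the largest day 7 change in each direction were named. Any further gene was singled out after its values were seen, and so were the convoluted-marker barcodes. The members and lists were chosen with earlier results of these data known.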

Additional observations from a re-analysis of the deposited data

Results flagged for a closer look

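The change from control to day 7 differed between proximal and distal barcodes, by the interaction test in edgeR with an adjusted p under 0.05, for 9 members. The proximal minus distal difference in log2 change was 1.01 for Acadvl, 1.08 for Hadha, 1.05 for Hadhb, 0.81 for Etfb, 2.21 for Acaa2, 2.48 for Eci1, 2.68 for Cyp4b1, 1.55 for Acsm2 and 2.23 for Acsl1. Distal Cyp4b1 and Acsm2 were at or below the level of leukocyte-gated barcodes in all 10 libraries, so their differences are not read as distal changes. DESeq2 called Acaa2, Eci1 and Acsl1 alone. Over all alternatives the call was lost under 5 for Acadvl, Hadha and Hadhb, 7 for Etfb, 2 for Cyp4b1 and Acsm2, and 1 for Acaa2, which stood at 0.61 in convoluted-marker barcodes. The 2 control values of each difference come from 1 library.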

How the results depend on the processing

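Over the alternatives run, 4464 of 5135 results for single genes kept their direction and their side of the threshold, 191 changed sign with no call either way, 252 lost a call, 221 gained one and 7 changed sign with a call. Of the 191, 41 were without TMM scaling and 30 in convoluted-marker barcodes. Without a filter on low counts, the members called in proximal barcodes numbered 14, 9 and 5 on days 7, 11 and 14 against control, and 3 for day 14 against day 11, where 10%, 13.3%, 7.56% and 7.67% of 25118 genes were called. With the proximal gate taken whatever the injured markers, they were 23, 8 and 5 against control and 30 for day 11 against day 7 (36.2%, 21%, 9.11% and 37.8% of all genes), and 12 members were past 2-fold on day 4 (36%). In convoluted-marker barcodes 11 were called on day 11 and 6 for day 14 against day 11, and 11 were past 2-fold on day 1. Without TMM scaling 6 were called for day 11 against day 7. Without the 5% of barcodes with most UMIs, 2 were called for day 14 against day 11. DESeq2 called 17 for distal day 11 against day 7 and 3 for the difference between gates, which was 14 with gates on marker shares. Leaving out single libraries gave 3 to 17 on day 7, 1 to 13 on day 11 and 0 to 7 on day 14 against control, 0 to 22 for day 11 against day 7 and 0 to 7 for day 14 against day 11. It gave 19 to 21 and 18 to 25 for the distal comparisons, 14 to 25 for injured against proximal, 25 to 26 for proximal against distal and 5 to 11 for the difference. Counts given in this section without a share of all genes show only how the calls depend on settings, and are not results about the members. Sign changes with a call, without TMM scaling, were distal Decr1 on day 7 (0.58) and, for distal day 11 against day 7, Ppargc1a (−9.2e-05), Cpt1a (−0.0396), Hadha (−0.0028) and Eci2 (−0.59). In convoluted-marker barcodes, day 14 against day 11 changed sign for 10 members, with a call for Cyp4a10 (−0.88) and Acsm3 (−0.95), and day 7 against control for 9, none with a call. The cause was not tested. No paired analysis was possible for comparisons with the control because the control has 1 library. Replicate numbers of days 7, 11 and 14 did not pair the libraries (correlations of deviations −0.0619 to 0.0148 in proximal sums), and with the replicate block 7 were called for proximal day 11 against day 7, 1 for day 14 against day 11 and 25 for distal day 11 against day 7. Depth limits day 7 most, where 10 UMIs of Ehhadh in replicate 1 stand against 1771 in the control.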
